A study of Mus musculus with 16 samples.

Results

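The genes described here are the mouse rows whose symbol begins with Gpr and a digit, or with Adgr and a letter: 103 of the 27179 rows of the table. Of these, 27 are adhesion G protein-coupled receptors (Adgr) and 76 are Gpr-numbered genes, most of which code for orphan receptors, for which no physiological ligand is generally accepted. Libraries were made from freshly sorted cells that express Pdgfrb, a receptor for platelet-derived growth factor carried by mural cells and fat progenitors. The mice were of strain C57BL/6 and 7 days old, and the depot was the epididymal white fat. The sort gave 4 populations with 4 libraries each: mesothelial-like cells (MLCs), smooth muscle cells (SMCs), adipocyte precursor cells (APCs) and fibro-inflammatory progenitors (FIPs). The labels name no transgene, treatment or genotype, so all 4 groups share strain, age, depot and the Pdgfrb sort. Separate animals or sorts are not stated for the 4 libraries of a population, and p-values therefore rest on a spread between libraries that could be technical.

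G protein-coupled receptors cross the plasma membrane with a bundle of helices and pass signals to heterotrimeric G proteins inside the cell. Adhesion receptors carry a long extracellular part that binds matrix or the surface of other cells, and a domain that cuts the chain and exposes a tethered agonist when the outer fragment is pulled away. Fat cell precursors, the mesothelium that lines the fat pad and vascular smooth muscle all lie against matrix and neighbouring cells. The symbol alone sets membership: Gpr107, Gpr108, Gpr180 and Gpr89 carry the name but are not classical receptors.

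The windows below are promoter windows listed for 4 genes that were high in MLCs (Adgrf5, Adgrg6, Gpr179 and Adgrf4). Windows of Gpr155, which led in SMCs, and of Adgrb3, which was low in MLCs, are given too. They are shown because the results turn on these genes. They come from RefSeq on GRCm38.p6, each 250 bases long and written 5′ to 3′ on the gene's strand. They lie at chr17:43360181-43360430 (plus strand, the first of the pair of windows listed for Adgrf5), chr10:14545037-14545286 (minus), chr11:97352357-97352606 (minus), chr17:42692285-42692534 (minus), chr2:73386481-73386730 (minus) and chr1:25829708-25829957 (minus). The windows of Adgrg6 and Adgrb3 lie inside the RefSeq spans given below, and those of Adgrf5 and Gpr155 reach into them. A window therefore need not be the promoter at the outer end of its gene. Capitals mark matches, on either strand, to GGGCGG (the GC box), AGATAA (a motif of GATA factors), GGAATG (a TEAD motif) and TATAAA (the TATA box).
Adgrf5: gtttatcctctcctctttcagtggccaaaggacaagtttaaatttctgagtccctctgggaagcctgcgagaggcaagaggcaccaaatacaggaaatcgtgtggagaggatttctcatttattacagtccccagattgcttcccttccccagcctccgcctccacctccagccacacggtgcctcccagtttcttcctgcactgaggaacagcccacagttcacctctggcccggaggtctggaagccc
Adgrg6: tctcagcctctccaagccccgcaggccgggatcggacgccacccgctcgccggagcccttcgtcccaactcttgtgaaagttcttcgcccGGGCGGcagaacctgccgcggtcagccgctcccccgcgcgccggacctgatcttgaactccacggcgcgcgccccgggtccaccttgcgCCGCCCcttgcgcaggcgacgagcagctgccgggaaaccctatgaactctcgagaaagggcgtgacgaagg
Gpr179: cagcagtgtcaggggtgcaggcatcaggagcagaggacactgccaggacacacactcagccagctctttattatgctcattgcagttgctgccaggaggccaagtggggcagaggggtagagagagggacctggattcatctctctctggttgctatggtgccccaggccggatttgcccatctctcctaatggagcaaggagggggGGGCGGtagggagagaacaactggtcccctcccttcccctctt
Adgrf4: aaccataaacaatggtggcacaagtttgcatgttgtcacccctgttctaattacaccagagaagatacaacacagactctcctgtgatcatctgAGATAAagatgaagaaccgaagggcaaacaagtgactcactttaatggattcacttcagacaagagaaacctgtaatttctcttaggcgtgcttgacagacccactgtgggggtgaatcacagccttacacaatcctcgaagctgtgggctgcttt
Gpr155: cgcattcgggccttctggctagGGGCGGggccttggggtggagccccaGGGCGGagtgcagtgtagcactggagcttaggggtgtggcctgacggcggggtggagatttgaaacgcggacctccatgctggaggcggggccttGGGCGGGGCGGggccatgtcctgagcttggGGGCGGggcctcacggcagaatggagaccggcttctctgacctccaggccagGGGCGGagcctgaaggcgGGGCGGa
Adgrb3: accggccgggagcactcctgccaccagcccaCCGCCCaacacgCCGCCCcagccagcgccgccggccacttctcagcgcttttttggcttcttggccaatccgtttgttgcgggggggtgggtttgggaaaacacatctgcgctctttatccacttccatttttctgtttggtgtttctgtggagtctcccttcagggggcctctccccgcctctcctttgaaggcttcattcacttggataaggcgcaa
The 4 windows of MLC-high genes shared no composition. Adgrg6 had 69.6% G or C and 32 CpG dinucleotides, Adgrf5 54.4% and 5, Gpr179 58.8% and 2, and Adgrf4 44.4% and 3, against medians of 52.4% and 6 over the 32851 windows of the table. Gpr155 had 70.4% and 17 CpG, and Adgrb3 59.2% and 14. GGGCGG was in 32.7% of all windows and in 29 of the 60 windows of genes that passed the filter described below; AGATAA was in 9.99% and 3, GGAATG in 12.6% and 4, and TATAAA in 12.4% and 5. A match is a string of letters and no evidence of binding. Of the 103 genes, 73 had a window in the table.

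The libraries held 9.20 to 27.5 M reads (median 21.6 M), and SMCs replicate 3 and APCs replicate 4 were the shallowest. The deposited values are normalized counts, read counts divided by 1 factor per library. Defining markers followed the labels for MLCs, where 18 of 18 mesothelial markers were called higher than in each other population; Pdgfrb itself, the gene of the sort, read 419 to 483 in MLCs, 3429 to 4165 in SMCs, 4489.6 to 4870.5 in APCs and 2678 to 3131 in FIPs. SMC libraries had the highest Acta2, the smooth muscle actin gene, at 5235, 4169.9, 5858 and 2884, but the contractile list was mixed: 7 of its 14 genes had their highest mean in SMCs, 3 in MLCs, 2 in APCs and 2 in FIPs. SMCs also had as much Pdgfra, a progenitor marker, as APCs and FIPs (412 to 515 in MLCs, 21130.0 to 25503 in SMCs, 20330.0 to 20899 in APCs and 21767 to 24120.0 in FIPs). Pparg, which drives fat cell formation, read 31.7 to 44.99 in MLCs, 73.6 to 196 in SMCs, 1200.2 to 1325 in APCs and 386 to 503 in FIPs, and Pi16, a marker of interstitial progenitors, read 36.4 to 44.3 in MLCs, 4412 to 5536 in SMCs, 665 to 761 in APCs and 10929 to 12530.0 in FIPs. APCs replicate 4 had 2388 for Acta2, against 156 to 221 in the other APC libraries. The summed mesothelial markers read 207390 to 217270 in MLCs, 19149 to 29000 in SMCs, 6048 to 6578 in APCs and 4555 to 5251 in FIPs. Lymphocyte markers stayed at or below a sum of 57.6 in every library, and neutrophil and mast cell markers at or below 93.3. In bulk RNA, fewer cells of a type and less RNA per cell cannot be told apart.

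The filter on low values asked for 4 of the 16 libraries with a normalized count of 10 or more. It was passed by 57 of the 103 genes, 17 of the 27 adhesion receptors and 40 of the 76 Gpr-numbered genes. Calls between 2 populations needed both a limma adjusted p below 0.05 and a 2-fold difference or more. Values after ± are SDs over 4 libraries for means and SEs for log2 fold changes. Of the 57, 39 were called in at least 1 of the 6 pairs of populations and 18 in none. The same share was not counted over all genes tested, so 39 is not a result about these genes. MLCs had the largest number of genes of their own: 14 were called higher there than in each of the other 3 populations, where the background was 10.6% of the 15024 genes tested, and 9 of the 14 were adhesion receptors. In SMCs the number was 4 (background 2.75%), in FIPs 1 (background 1.5%) and in APCs 0 by limma, edgeR and DESeq2 alike (background 1.07%); at an unadjusted p under 0.05 and any fold, 1 gene was higher in APCs than in each other population. Another 7 were called lower in MLCs than in all 3 others (background 7.89%).

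MLCs against APCs gave 18 higher (background 17.7%) and 9 lower (background 11.8%) of the 57, and MLCs against FIPs gave 19 higher (background 18.6%) and 13 lower (background 12.5%). MLCs against SMCs gave 16 higher (background 14.4%) and 12 lower (background 13.5%). The adhesion receptors made up most of the higher side: of their 17, 10, 11 and 11 were called higher in MLCs than in APCs, FIPs and SMCs, and 2 were called lower each time. The median log2 fold change of the 17 was 1.29, 2.26 and 1.28 in these pairs, against 0.02, 0.02 and 0.04 over all genes tested. The 40 Gpr-numbered genes divided more evenly, with 8, 8 and 5 higher and 7, 11 and 10 lower. The 3 comparisons share the MLC libraries and are not independent of each other, and a gene that passed the filter only through the population where it is high had to differ.

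**Figure D1:**
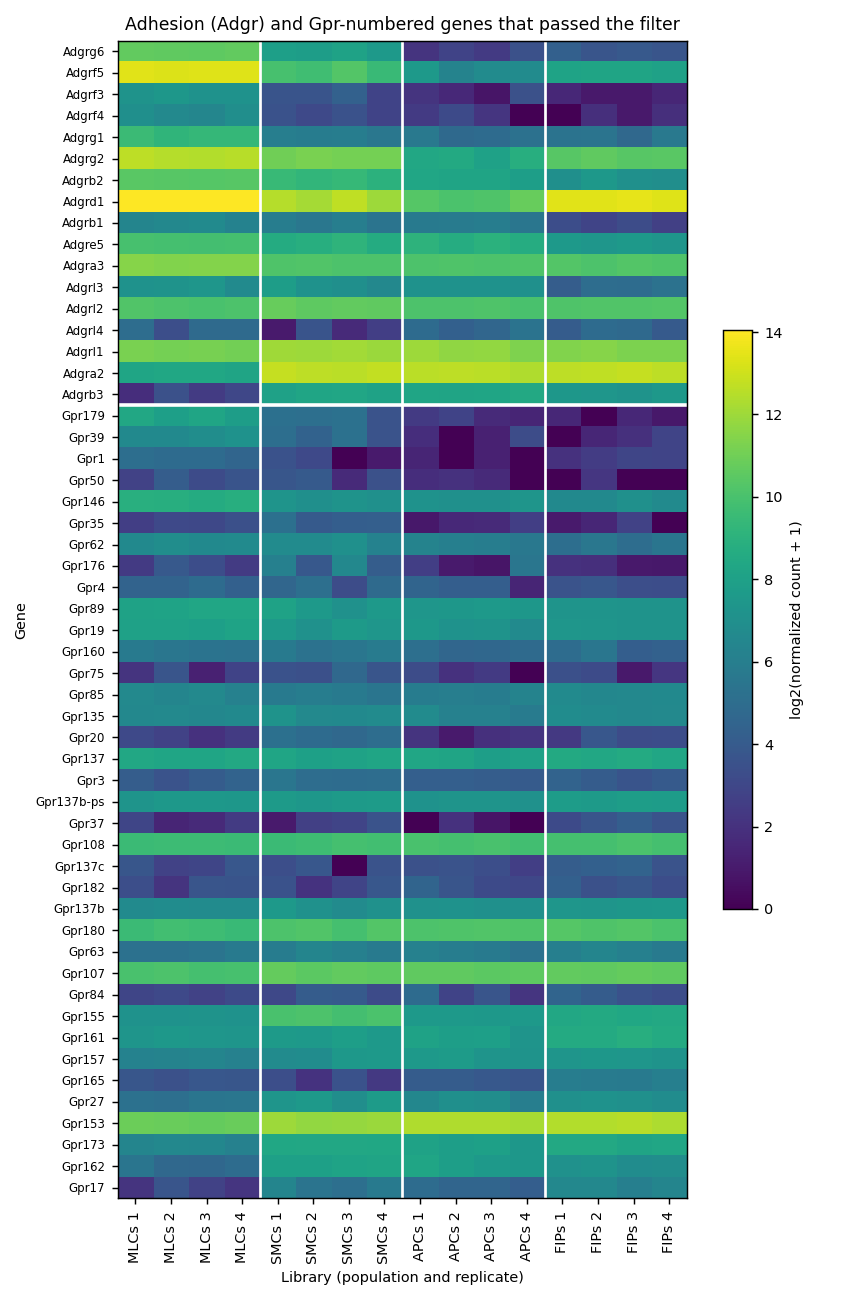
Each row is one of 54 genes that passed the filter, each column a library, and the colour is log2(normalized count + 1); adhesion receptors stand above the white line and Gpr-numbered genes below it, each block ordered by the log2 fold change of MLCs over APCs and FIPs. The upper rows of each block are brighter in the 4 MLC columns than in those of APCs and FIPs. Low genes among them, such as Gpr1 and Gpr50, stay dim throughout. Adgra2 is dimmer in MLCs (293 to 326) than in all 12 other columns (5269 to 7282).

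Among the 14 genes called higher in MLCs than in each other population, Adgrf5 had the most normalized counts (chr17:43360329-43459557, RefSeq span on GRCm38.p6); it is known in lung epithelium as a brake on surfactant. Adgrf5 read 11060.0, 9961, 10507 and 10606 normalized counts in MLCs, 987, 851, 1240.5 and 721 in SMCs, 185, 77.5, 110.1 and 109 in APCs, and 284, 297, 293 and 258 in FIPs. Its MLC libraries lay apart from all others, SMCs came next, and FIPs lay above APCs with no overlap. Relative to APCs the log2 fold change was 6.51 ± 0.18 (SE, limma adjusted p = 9.23e-17), and relative to FIPs 5.21 ± 0.18 (SE, limma adjusted p = 2.73e-15).

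Adgrg6 (chr10:14402583-14545723), which Schwann cells need to form myelin, had the largest fold difference of the 57 genes between MLCs and APCs. Adgrg6 read 1630.4, 1546, 1514 and 1627 normalized counts in MLCs, 240.1, 226, 275 and 196 in SMCs, 3.38, 6.04, 4.29 and 10.4 in APCs, and 18.8, 12.02, 14.3 and 11.8 in FIPs. The order MLCs, SMCs, FIPs, APCs held without overlap between any of the populations. The log2 fold change of MLCs was 7.91 ± 0.23 (SE, limma adjusted p = 1.38e-16) over APCs and 2.76 ± 0.23 (SE, limma adjusted p = 2.54e-09) over SMCs. Markers of Schwann and neural cells summed to 3622 to 3852 in MLCs, 1416 to 1805 in SMCs, 1526 to 1833 in APCs and 484 to 637 in FIPs. Mbp made up most of the sum in MLCs (mean 3332, against 360 in SMCs). Of the 7 of these markers that passed the filter, 2 were called higher and 5 lower in MLCs than in SMCs, and 2 higher and 3 lower than in APCs. Sox10, which defines Schwann cells, read at most 3.69 in MLCs, and the part of these markers in the Adgrg6 result was not tested.

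Adgrg2 (chrX:160390318-160498076) is best known from the epithelium of the efferent ducts and epididymis, where it takes part in fluid transport. Adgrg2 read 6398, 5685, 5584 and 6023 normalized counts in MLCs, 2057, 2341, 2223 and 2241 in SMCs, 343, 368, 263 and 439 in APCs, and 1371, 1548, 1331 and 1412 in FIPs. All 4 populations were separate, with MLCs highest and APCs lowest. The epididymal epithelium adjoins this fat pad, and its 9 markers summed to 1626 to 1839 in MLCs, 123 to 184 in SMCs, 13.6 to 19.1 in APCs and 16.2 to 97.0 in FIPs; 3 of the 9 stayed under 10 in every library, and the epididymal lipocalin gene Lcn5 reached no more than 0.738. By mean, 7 of the 9 were highest in MLCs and 2 in SMCs. Of the 4 that passed the filter, 4 were called higher in MLCs than in APCs and 4 than in SMCs. Against FIPs 3 were called higher in MLCs, and 0 were called lower in any of these pairs. The part of these markers in the Adgrg2 result was not tested.

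Adgrg1, a receptor for transglutaminase and collagen III in the developing brain, was called higher in MLCs than in each other population and called in no other pair. Adgrg1 read 766, 586, 651 and 651 normalized counts in MLCs, 64.2, 58.7, 61.9 and 47.003 in SMCs, 49.9, 27.2, 29.3 and 36.3 in APCs, and 39.6, 41.6, 25.8 and 49.9 in FIPs. SMC, APC and FIP libraries lay between 25.8 and 64.2, and the log2 fold change of MLCs over SMCs was 3.5 ± 0.20 (SE, limma adjusted p = 1.12e-11). The neighbouring genes Adgrg5 and Adgrg3, 31.5 kb and 2.90 kb away on chromosome 8, did not pass the filter and reached at most 9.20 and 8.38 in any library.

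The orphan receptors Adgrf3 and Adgrf4 were low genes with the same outline. Adgrf3 read 150.0, 175, 144 and 143 normalized counts in MLCs, 11.6, 11.7, 19.2 and 6.13 in SMCs, 3.38, 2.01, 0.715 and 10.4 in APCs, and 1.98, 0.925, 0.955 and 1.81 in FIPs. Adgrf4 read 129, 97.3, 87.8 and 119.7 normalized counts in MLCs, 10.5, 7.47, 10.7 and 6.13 in SMCs, 4.23, 8.06, 3.57 and 0 in APCs, and 0, 2.77, 0.955 and 2.72 in FIPs. In both, the 4 MLC libraries lay far above all others. Each was also called higher in SMCs than in APCs, but there the libraries overlapped, and the call for Adgrf4 (adjusted p = 0.0495, limma) was lost under 20 alternative settings. Adgrf4 lies on chromosome 17 beside Adgrf2, with which its span overlaps, and in the same cluster as Adgrf1 and Adgrf5, which lie 34.5 kb apart; Adgrf1 and Adgrf2 did not pass the filter, with highest values of 5.03 and 7.61.

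Adgrb2 and Adgre5 were higher in MLCs with a graded level elsewhere. Adgrb2 belongs to the brain angiogenesis inhibitor family. Adgrb2 read 1413, 1327, 1290.0 and 1337 normalized counts in MLCs, 715, 606, 687 and 520.1 in SMCs, 314, 293, 292 and 232 in APCs, and 129, 179, 129.8 and 122 in FIPs. SMCs lay between MLCs and APCs without overlap, and FIPs were lowest. Adgre5, known as CD97 on leukocytes, binds the complement regulator CD55. Adgre5 read 984, 949.7, 926 and 941 normalized counts in MLCs, 402, 454, 564 and 398 in SMCs, 538, 418, 497 and 406 in APCs, and 188, 163, 188 and 157 in FIPs. MLCs were highest, SMCs and APCs overlapped, and FIPs were lowest; the log2 fold change of MLCs over APCs was 1.04 ± 0.11 (SE, limma adjusted p = 7.37e-08). That call was lost with edgeR and with DESeq2. A share of 24.6% of the Adgre5 exons overlaps Ddx39, so its values are uncertain. Macrophage and myeloid markers summed to 2600 to 3181 in MLCs, 957 to 1214 in SMCs, 650 to 1346 in APCs and 580 to 902 in FIPs, while Ptprc, the gene of the common leukocyte antigen, was at most 11.4 in any library. Csf1r averaged 2211 of that sum in MLCs, and of the 8 markers that passed the filter 3 were called higher and 1 lower in MLCs than in APCs; the part of these markers in the Adgre5 result was not tested. Adgra3, an orphan receptor, completed the adhesion genes of MLCs at 2792 ± 95.7 (MLCs), 1152 ± 46.8 (SMCs), 1142 ± 25.04 (APCs) and 1187 ± 58.1 (FIPs).

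Of the 5 Gpr-numbered genes of MLCs, Gpr179 (chr11:97332109-97352356) codes for a scaffold of the signalling complex in retinal bipolar cells. Gpr179 read 340.2, 238, 301 and 226 normalized counts in MLCs, 34.7, 34.2, 36.3 and 11.2 in SMCs, 4.23, 6.04, 2.14 and 1.73 in APCs, and 1.98, 0, 1.91 and 0.907 in FIPs. MLC and SMC libraries were each apart from the rest, and APC and FIP libraries read at most 6.04. The log2 fold change of MLCs over FIPs was 7.08 ± 0.42 (SE, limma adjusted p = 1.14e-11).

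Gpr39 is a receptor for zinc. Gpr39 read 98.9, 102, 119 and 144 normalized counts in MLCs, 32.6, 20.3, 36.3 and 11.2 in SMCs, 2.54, 0, 1.43 and 8.65 in APCs, and 0, 1.85, 2.86 and 6.35 in FIPs. MLC libraries exceeded all SMC libraries, and SMC libraries exceeded those of APCs and FIPs. On the opposite strand Lypd1 covers 39.9% of the Gpr39 exons. The mean of Lypd1 was 1.76 ± 2.04 (MLCs), 5.77 ± 1.97 (SMCs), 11.03 ± 5.93 (APCs) and 3.31 ± 1.98 (FIPs), lowest where Gpr39 was highest. The part of this overlap in the Gpr39 values was not tested. Gpr146, which in liver governs plasma cholesterol, averaged 435 ± 25.7 (MLCs), 142 ± 13.2 (SMCs), 141 ± 14.1 (APCs) and 109 ± 15.3 (FIPs). Gpr1, a receptor for the adipokine chemerin, was a low gene at 28.3 ± 4.03 (MLCs), 4.76 ± 5.07 (SMCs), 0.78003 ± 0.907 (APCs) and 5.16 ± 1.72 (FIPs).

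**Figure D2:**
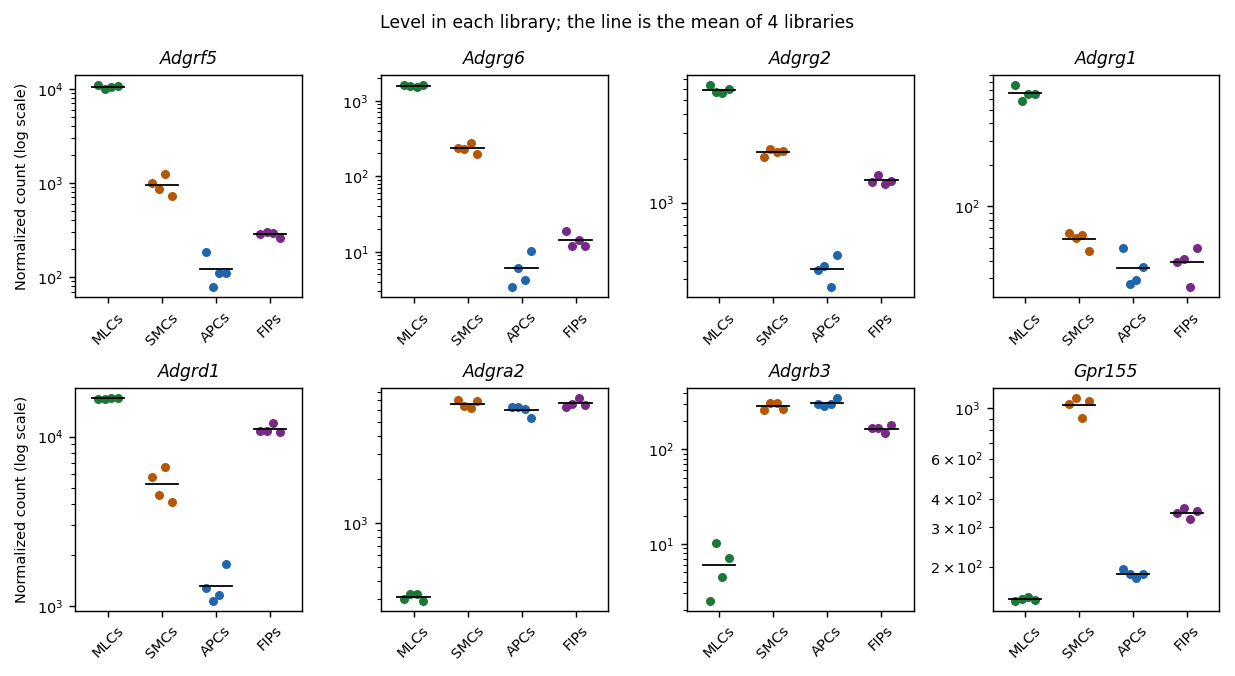
Normalized counts in each of the 16 libraries on a log axis, one panel per gene, with populations from left to right MLCs, SMCs, APCs and FIPs and a line at the mean of 4 libraries. Adgrf5, Adgrg6, Adgrg2 and Adgrg1 are highest in MLCs, Adgrd1 is low in APCs (1082 to 1772), Adgra2 and Adgrb3 are low in MLCs, and Gpr155 is highest in SMCs.

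The 7 genes called lower in MLCs than in all 3 other populations were Adgra2, Adgrb3, Gpr153, Gpr162, Gpr17, Gpr173 and Gpr27. Adgra2 (chr8:27085520-27123436) is the partner of Reck in Wnt7 signalling of brain endothelium. Adgra2 read 301, 326, 325 and 293 normalized counts in MLCs, 7092, 6425, 6232 and 6895 in SMCs, 6265, 6335, 6068 and 5269 in APCs, and 6334, 6579.7, 7282 and 6531 in FIPs. The 12 libraries of SMCs, APCs and FIPs overlapped, and MLCs lay below them with a log2 fold change of -4.42 ± 0.07 (SE, limma adjusted p = 9.08e-21) relative to FIPs. Adgrb3 (chr1:25067476-25834772), a synaptic receptor for C1q-like proteins, had the largest fall of the 57 genes in MLCs. Adgrb3 read 2.51, 10.1, 4.43 and 7.04 normalized counts in MLCs, 264, 307, 312 and 271 in SMCs, 306, 290.0, 303 and 351 in APCs, and 170.2, 168, 149 and 179.6 in FIPs. MLC libraries reached at most 10.1, SMCs and APCs overlapped, and FIPs were lower than both but short of the 2-fold threshold, with a log2 fold change of 0.90 ± 0.24 (SE, limma adjusted p = 0.00443) for APCs over FIPs.

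Gpr153 and Gpr162 are related orphan receptors. Gpr153 read 1866, 1801, 1713 and 1793 normalized counts in MLCs, 4133, 3468, 3625 and 3844 in SMCs, 5323, 5393, 5257 and 4709 in APCs, and 5569, 5444, 5945 and 5197 in FIPs. Gpr162 read 43.6, 26.2, 25.1 and 30.8 normalized counts in MLCs, 247, 249.7, 279.7 and 289 in SMCs, 307, 231, 189 and 173 in APCs, and 137, 149.8, 112 and 115 in FIPs. Gpr153 was high in every population, and its log2 fold change in MLCs relative to FIPs was -1.63 ± 0.06 (SE, limma adjusted p = 8.14e-15). Gpr162 was in addition called higher in SMCs than in FIPs. Gpr27 and Gpr173 belong to one brain-expressed orphan family. Gpr27 read 36.9, 34.7, 43.5 and 44.9 normalized counts in MLCs, 159, 185, 119.6 and 207 in SMCs, 89.6, 129, 116 and 62.3 in APCs, and 131, 139.6, 133 and 114 in FIPs. Gpr173 averaged 84.3 ± 8.998 (MLCs), 335 ± 10.5 (SMCs), 229.6 ± 41.9 (APCs) and 332 ± 32.1 (FIPs). The third member of that family, Gpr85, averaged 87.02 ± 12.4 (MLCs), 52.4 ± 7.82 (SMCs), 64.04 ± 8.22 (APCs) and 97.2 ± 7.06 (FIPs); it was called in no pair. Gpr17, known from oligodendrocyte precursors, averaged 6.15 ± 3.97 (MLCs), 53.02 ± 21.6 (SMCs), 23.4 ± 5.39 (APCs) and 82.98 ± 12.2 (FIPs). Among lower genes called in fewer pairs, Gpr157 averaged 76.3 ± 5.57 (MLCs), 146 ± 40.7 (SMCs), 174 ± 27.4 (APCs) and 159.9 ± 10.1 (FIPs). Gpr161, a ciliary receptor that restrains hedgehog signalling, averaged 165 ± 8.86 (MLCs), 206 ± 20.2 (SMCs), 228 ± 51.7 (APCs) and 399 ± 31.3 (FIPs). Gpr161 was highest in FIPs and was called only in MLCs against FIPs. With libraries scaled to equal totals that call was lost, as was the call of Gpr157 in the same pair.

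APCs against FIPs separated the progenitors by 5 higher genes (background 5.22%) and 9 lower genes (background 5.2%) of the 57. The higher genes were 4 adhesion receptors and 1 Gpr-numbered gene, and the lower ones were 4 adhesion receptors and 5 Gpr-numbered genes. When libraries were scaled to equal totals the median over all genes lay at 0.23 on the log2 scale, and the split was 8 higher and 8 lower (8.03% and 3.87% of all genes). Without APCs replicate 4, whose Acta2 was high, it was 7 higher and 8 lower (5.49% and 5.19%).

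The widest difference was that of Adgrd1 (chr5:129096750-129204599), an orphan receptor that couples to Gs. Adgrd1 read 16756, 16683, 16838 and 16912 normalized counts in MLCs, 5749.9, 4506, 6612 and 4127 in SMCs, 1275, 1082, 1168 and 1772 in APCs, and 10844, 10785, 11978 and 10587 in FIPs. MLCs and FIPs both had a high level, and APCs were lowest, with a log2 fold change of -3.08 ± 0.13 (SE, limma adjusted p = 1.02e-12) for APCs over FIPs. MLCs exceeded FIPs by 0.61 ± 0.13 (SE, limma adjusted p = 0.000523), short of the 2-fold threshold. Adgrg2, Adgrf5 and Adgrg6 were lower in APCs too, with log2 fold changes of -2.02 ± 0.10, -1.3 ± 0.18 and -1.19 ± 0.23. These are genes that MLCs carry at the highest level. The Adgrg6 call was lost under 3 alternative settings, libraries scaled to equal totals among them. Of the 18 mesothelial markers 11 were also called lower in APCs than in FIPs and 1 higher, while their sum averaged 6311 ± 247 (APCs) and 4785 ± 316 (FIPs); their part in the result was not tested.

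Adgrb1, which in phagocytes recognises apoptotic cells, was the largest rise in APCs. Adgrb1 read 83.8, 93.9, 103 and 73.1 normalized counts in MLCs, 60.02, 45.9, 64.1 and 40.9 in SMCs, 54.9, 57.4, 60.05 and 44.96 in APCs, and 8.904, 6.47, 8.59 and 5.44 in FIPs. FIPs alone were low, with a log2 fold change of 2.74 ± 0.21 (SE, limma adjusted p = 2.67e-09) for APCs over FIPs. The latrophilin Adgrl3, a receptor for teneurins and FLRT proteins, had the same outline. Adgrl3 read 141, 147, 167 and 105 normalized counts in MLCs, 225, 141, 128 and 92.98 in SMCs, 145, 141, 142 and 129.7 in APCs, and 16.8, 31.4, 30.6 and 38.1 in FIPs. MLC, SMC and APC libraries overlapped and all FIP libraries were lower, with a log2 fold change of 2.27 ± 0.24 (SE, limma adjusted p = 3.16e-07). Adgre5 and Adgrb2, given above, were higher in APCs by 1.41 ± 0.11 and 1.02 ± 0.12 on the log2 scale. The Adgrb2 value stood at the threshold and was lost under 10 alternative settings, edgeR and DESeq2 among them.

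Gpr165, an orphan gene, was the FIP gene. Gpr165 read 12.6, 10.1, 13.3 and 12.3 normalized counts in MLCs, 9.48, 3.202, 10.7 and 4.09 in SMCs, 16.1, 16.1, 13.6 and 12.1 in APCs, and 60.3, 57.3, 54.4 and 67.1 in FIPs. The 4 FIP libraries read at least 54.4 and no other library more than 16.1. The other genes lower in APCs than in FIPs were Gpr17, Gpr20, Gpr37 and Gpr1. The Gpr1 call was lost under 6 alternative settings, edgeR among them. Gpr37, for which prosaposin has been proposed as a ligand, averaged 3.75 ± 2.29 (MLCs), 6.01 ± 4.18 (SMCs), 0.934 ± 1.43 (APCs) and 12.0003 ± 3.87 (FIPs).

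**Figure D3:**
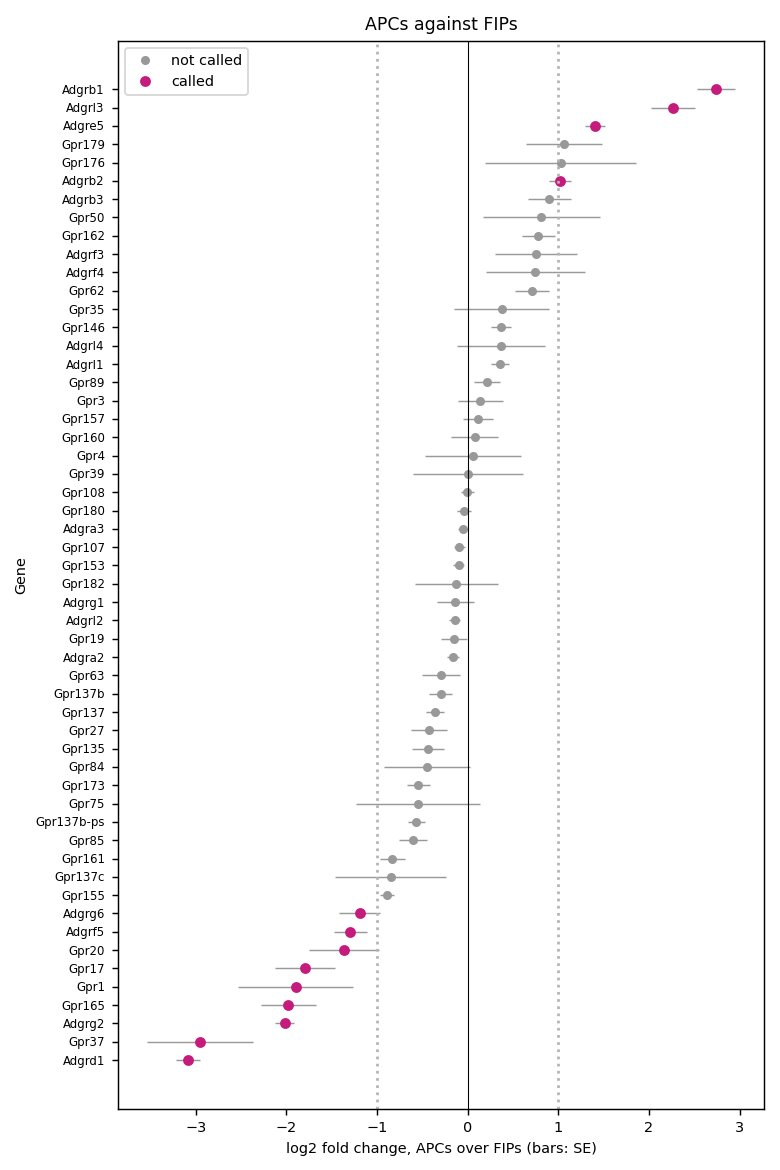
Log2 fold change of APCs over FIPs for 54 of the 57 genes that passed the filter, with bars of 1 SE, dotted lines at a 2-fold change either way, and called genes in magenta. Adgrb1 (2.74) and Adgrl3 (2.27) stand at the right end and Adgrd1 (-3.08), Gpr37 (-2.96) and Adgrg2 (-2.02) at the left.

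SMCs against APCs gave 18 higher genes (background 13.5%) and 2 lower (background 3.79%), and SMCs against FIPs gave 19 higher (background 13.3%) and 3 lower (background 4.6%). After quantile normalization the splits were 12 higher and 4 lower (9.0% and 7.22% of all genes), and 15 higher and 11 lower (9.4% and 7.88%). Without APCs replicate 4, SMCs against APCs gave 14 higher and 2 lower (12.7% and 3.7% of all genes). The 2 sets of calls share the SMC libraries.

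The clearest SMC gene was Gpr155 (chr2:73341506-73386521), a lysosomal membrane protein that senses cholesterol. Gpr155 read 142, 145, 147 and 143 normalized counts in MLCs, 1051, 1112, 905 and 1082 in SMCs, 195, 185, 178 and 185 in APCs, and 346, 363, 324 and 351 in FIPs. The SMC libraries lay above all others, FIPs came next, then APCs, and MLCs were lowest, with no overlap between populations. The log2 fold change of SMCs was 2.47 ± 0.08 (SE, limma adjusted p = 8.25e-15) over APCs and 1.58 ± 0.08 (SE, limma adjusted p = 2.18e-12) over FIPs. Gpr20, a receptor with constitutive activity towards Gi, averaged 5.203 ± 1.97 (MLCs), 30.2 ± 3.904 (SMCs), 2.68 ± 1.14 (APCs) and 8.64 ± 3.68 (FIPs). Gpr35, which kynurenic acid activates, averaged 7.42 ± 1.91 (MLCs), 21.3 ± 9.08 (SMCs), 2.55 ± 1.85 (APCs) and 2.14 ± 2.51 (FIPs). The Gpr35 call between MLCs and SMCs (adjusted p = 0.0297, limma) was lost under 6 alternative settings, other pseudocounts and quantile normalization among them. It was kept with edgeR and with DESeq2.

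Gpr176, an orphan receptor of the circadian pacemaker, varied within populations. Gpr176 read 4.19, 14.4, 8.85 and 4.402 normalized counts in MLCs, 68.4, 13.9, 93.9 and 16.3 in SMCs, 5.07, 1.01, 0.715 and 44.96 in APCs, and 2.97, 2.77, 0.955 and 0.907 in FIPs. SMCs replicates 1 and 3 were high and replicates 2 and 4 low, and APCs replicate 4 lay among the SMC libraries. Acta2 read 5235, 4169.9, 5858 and 2884 in the same SMC libraries and 221, 218, 156 and 2388 in the APC libraries, and its part in the Gpr176 values was not tested. The Gpr176 difference between SMCs and APCs (log2 fold change 2.7 ± 0.83 (SE, limma adjusted p = 0.00991)) was lost with edgeR and with DESeq2. Without SMCs replicate 1, 2 genes were called higher in SMCs than in each other population, and without MLCs replicate 1 also 2.

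Adgrl4, which endothelium carries, went the other way in SMCs. Adgrl4 read 30.999, 9.302, 28.03 and 28.2 normalized counts in MLCs, 1.05, 11.7, 2.14 and 5.11 in SMCs, 29.6, 19.1, 23.6 and 39.8 in APCs, and 15.8, 29.6, 26.7 and 14.5 in FIPs. SMC libraries were lower than those of APCs and FIPs, with log2 fold changes of -2.57 ± 0.49 and -2.2 ± 0.49. Adgrl4 was also called higher in MLCs than in SMCs, with a log2 fold change of 2.28 ± 0.49 (SE, limma adjusted p = 0.000418). In that pair the SMC libraries overlapped MLCs replicate 2. Of the endothelial markers, Pecam1 read 13.7, 45.9, 8.54 and 54.2 in SMCs and 49.0 to 161 in MLCs, 79.6 to 146 in APCs and 63.5 to 123 in FIPs, while Cdh5 was highest in SMCs, at 1537, 2270.1, 1330.1 and 1653. The 14 endothelial markers summed to 4928 to 6090 in MLCs, 3817 to 4583 in SMCs, 1249 to 1990 in APCs and 8009 to 8944 in FIPs, where Tek alone averaged 7827. Counted by gene, 4 of the 14 were called higher and 7 lower in SMCs than in APCs (median log2 fold change -1.33), and 3 higher and 5 lower than in FIPs. In MLCs 9 of the 14 markers were called higher and 2 lower than in SMCs (median log2 fold change 1.69). Their part in the Adgrl4 result was not tested. The neural Sox10 read 44.2, 8.54, 14.9 and 52.1 in SMCs and at most 3.69 elsewhere. Gpr17, which is known from the oligodendrocyte lineage, read 83.2, 41.6, 34.2 and 53.1 in SMCs. In FIPs Gpr17 read 92.0, 91.5, 65.9 and 82.5. Whether Sox10 and Gpr17 belong together was not tested.

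Of the 18 genes called higher in SMCs than in APCs, 9 were among the 14 genes of MLCs, and of the 19 called higher than in FIPs likewise 9. The same overlap was not counted over all genes tested, so it cannot be read as a trait of the receptors. The SMC mean as a share of the MLC mean ranged from 7.95% to 47.8% over the 14 MLC genes, with a median of 15.8%. Over the 18 mesothelial markers it ranged from 1.57% to 33.1%, with a median of 7.98%, and the marker sum in SMCs was 11.3% of that in MLCs. By library the sum was 11.8%, 10.7%, 13.7% and 9.01% in SMCs replicates 1 to 4. Adgrf3, Adgrf4, Adgrg1, Adgrf5 and Gpr179 lay between 7.95% and 10.5%, inside the range of the markers. Adgre5, Adgrb2, Adgra3 and Adgrg2 lay at 37.4% or more, above the highest marker, and the levels of Adgra3 and Adgre5 in SMCs overlapped those in APCs. The part of mesothelial RNA in the SMC values was not tested.

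**Figure D4:**
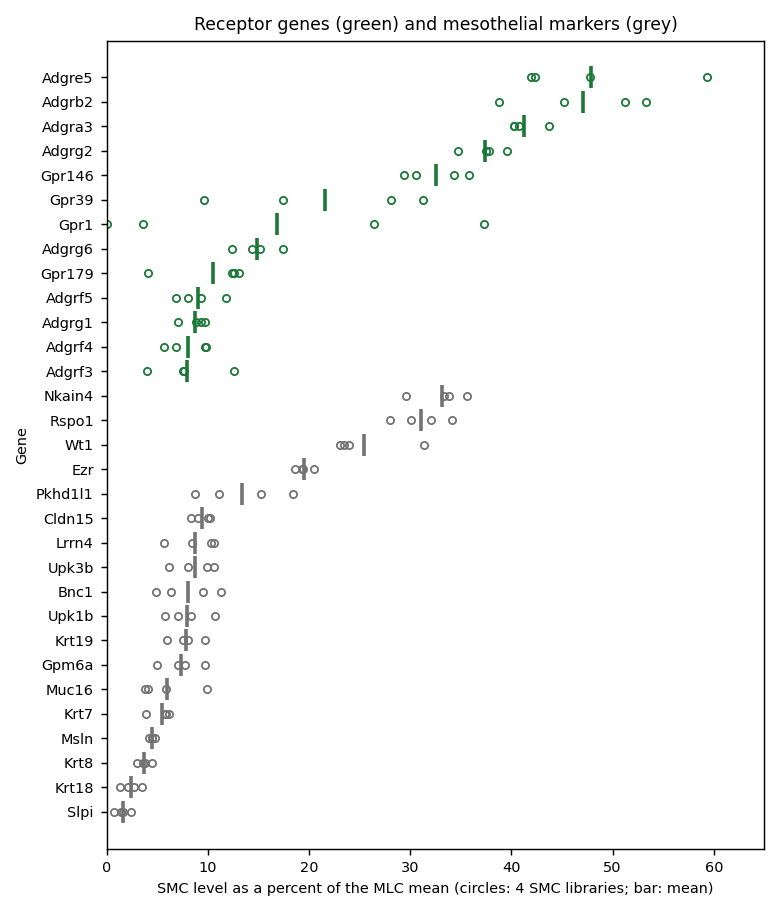
The level in SMCs as a percent of the MLC mean, for 13 of the 14 genes called higher in MLCs than in each other population (green) and for 18 mesothelial markers (grey); circles are the 4 SMC libraries and the bar is their mean. The lower 5 green rows lie between 7.95% and 10.5%, a range that holds 5 of the 18 markers (8 lie below it and 5 above), and the upper 4 reach 37.4% to 47.8%.

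Divided by exon length, so that genes can be compared, the leading gene of MLCs was Adgrd1, at 2019 ± 11.9 normalized counts per kb, followed by Adgrf5 at 1169 ± 50.1 and Adgrg2 at 1122 ± 69.8, which overlap within 1 SD. In SMCs Adgra2 led at 1154 ± 69.3 per kb, then Gpr153 at 964 ± 73.8. Gpr153 led in APCs at 1323 ± 80.0 and in FIPs at 1417 ± 79.8 per kb, followed in APCs by Adgra2 at 1036 ± 84.9 and in FIPs by Adgrd1 at 1328 ± 75.6 (SD, n = 4 throughout). The first and second of FIPs differed by about 1 SD. Adgrd1, Gpr153, Gpr180, Gpr108 and Adgrl1 were among the 8 leading genes of every population. Adgra2 was among the 8 in SMCs, APCs and FIPs but not in MLCs.

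Some high genes were called in no pair. The latrophilin Adgrl1 was one; its differences between populations were under 2-fold. Adgrl1 read 2340.0, 2217, 2317 and 2089.9 normalized counts in MLCs, 4147, 4086, 4377 and 3925 in SMCs, 4088, 3419.8, 3431 and 2549 in APCs, and 2624, 2854, 2479 and 2439 in FIPs. SMC libraries were above those of MLCs and FIPs and overlapped those of APCs, and the log2 fold change of MLCs over SMCs was -0.88 ± 0.10 (SE, limma adjusted p = 1.62e-07); 15.6% of the Adgrl1 exons overlap another gene. Adgrl2 averaged 1116 ± 82.1 (MLCs), 1606 ± 111 (SMCs), 1095 ± 48.8 (APCs) and 1208 ± 44.01 (FIPs). Gpr107 and Gpr108, membrane proteins of the Golgi, averaged 1021 ± 72.99 (MLCs), 1578 ± 126 (SMCs), 1511 ± 36.3 (APCs) and 1613 ± 78.8 (FIPs) and 778 ± 20.2 (MLCs), 845 ± 83.7 (SMCs), 983 ± 68.3 (APCs) and 987 ± 65.7 (FIPs), and Gpr180 averaged 800.1 ± 62.5 (MLCs), 1129 ± 141 (SMCs), 1156 ± 28.5 (APCs) and 1192 ± 88.8 (FIPs). None of Adgrl1, Adgrl2, Gpr107, Gpr108 and Gpr180 was called in any pair. Gpr137b and its copy Gpr137b-ps may share reads, so their separate levels are uncertain; they averaged 108 ± 3.87 (MLCs), 144 ± 33.5 (SMCs), 136 ± 4.54 (APCs) and 168 ± 7.66 (FIPs) and 173 ± 11.7 (MLCs), 196 ± 16.5 (SMCs), 144 ± 8.17 (APCs) and 214 ± 11.8 (FIPs) and neither was called.

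Of the other genes that passed and were called in no pair, Gpr137 averaged 327 ± 26.98 (MLCs), 281 ± 26.3 (SMCs), 276 ± 34.02 (APCs) and 354 ± 27.7 (FIPs), and Gpr19 averaged 263 ± 15.2 (MLCs), 174 ± 30.1 (SMCs), 143 ± 30.6 (APCs) and 156 ± 10.5 (FIPs). Gpr89, a Golgi protein, averaged 297 ± 25.1 (MLCs), 197 ± 56.3 (SMCs), 175 ± 8.91 (APCs) and 150.5 ± 3.23 (FIPs); 27.9% of its exons overlap other genes. Gpr135, Gpr63, Gpr160, Gpr182 and Gpr137c were also called in no pair, with highest population means of 113, 68.4, 48.6, 12.6 and 16.8. Among low genes with a call, Gpr75 averaged 5.71 ± 4.52 (MLCs), 14.5 ± 7.49 (SMCs), 3.94 ± 3.505 (APCs) and 5.699 ± 4.13 (FIPs) and was called higher in SMCs than in APCs. The Gpr75 call was lost with edgeR and with DESeq2. Gpr3, a constitutive activator of Gs that drives heat production in fat, averaged 16.3 ± 4.15 (MLCs), 34.5 ± 6.58 (SMCs), 16.97 ± 1.18 (APCs) and 15.6 ± 3.88 (FIPs) and was called higher in SMCs than in MLCs and FIPs. Gpr62 averaged 106 ± 8.34 (MLCs), 106 ± 24.05 (SMCs), 63.3 ± 12.1 (APCs) and 38.3 ± 7.29 (FIPs), and Gpr50, related to the melatonin receptors, averaged 10.6 ± 4.802 (MLCs), 9.98 ± 5.58 (SMCs), 1.93 ± 1.33 (APCs) and 0.925 ± 1.85 (FIPs). The free fatty acid receptor Gpr84 averaged 7.03 ± 0.916 (MLCs), 11.6 ± 4.48 (SMCs), 12.8 ± 11.8 (APCs) and 14.3 ± 5.76 (FIPs) with no call; 39.5% of its exons overlap another gene. The proton sensor Gpr4 averaged 22.3 ± 4.45 (MLCs), 23.6 ± 10.9 (SMCs), 14.5 ± 8.81 (APCs) and 10.6 ± 1.73 (FIPs), also with no call.

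Of the 46 genes that did not pass, 39 stayed under 10 in every library, and the highest value of any was 21.8, for Gpr152 in MLCs replicate 1. Gpr33 and Gpr139 were at 0 in all 16 libraries. The macrophage receptor Adgre1 reached 13.9 and Adgre4 10.9, and the lymphoid receptors Gpr183 and Gpr174 reached 10.7 and 8.65. The very large Adgrv1 reached 7.38 and Adgra1 8.42. Gpr119, Gpr6 and Gpr12 reached at most 1.76, 0.880 and 3.07.

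Of 29 listed ligand genes of the adhesion receptors that passed the filter, more were called lower than higher in MLCs. MLCs against APCs called 7 higher and 11 lower (17.7% and 11.8% of all genes), MLCs against FIPs 8 and 14 (18.6% and 12.5%), and MLCs against SMCs 6 and 13 (14.4% and 13.5%). The median log2 fold change of the 29 was -0.50, -0.48 and -0.71 in these pairs, against 0.02, 0.02 and 0.04 over all genes. SMCs against APCs called 11 higher and 4 lower (13.5% and 3.79% of all genes), SMCs against FIPs 8 and 8 (13.3% and 4.6%), and APCs against FIPs 4 and 7 (5.22% and 5.2%). Tgm2, which codes for transglutaminase 2, a ligand of Adgrg1, was highest where Adgrg1 was. Tgm2 read 14954, 15371, 14414 and 13667 normalized counts in MLCs, 5385, 5347, 4940.4 and 4830.0 in SMCs, 1340.5, 1375, 1438 and 1321 in APCs, and 271, 317, 342 and 316 in FIPs. All populations were separate. Col4a1 codes for a chain of collagen IV, a ligand of Adgrg6, and was lowest in MLCs, where Adgrg6 was highest. Col4a1 read 2368, 2704, 2379 and 2548 normalized counts in MLCs, 30213, 27313, 26705 and 28556 in SMCs, 63027, 64048, 66211 and 62602 in APCs, and 41085, 37265, 44895 and 41747 in FIPs. Cd55, the partner of Adgre5, was likewise lowest in MLCs and highest in FIPs, the reverse of Adgre5. Cd55 read 412, 410.1, 443 and 426 normalized counts in MLCs, 3845, 3515, 4311 and 3999 in SMCs, 3845, 4065, 4133 and 5004 in APCs, and 13227, 12399, 13244 and 13533 in FIPs. Reck, the partner of Adgra2, was low in MLCs as was Adgra2. Reck read 777, 781, 769 and 703 normalized counts in MLCs, 4946, 4706, 4319 and 5046 in SMCs, 4293, 4479, 4745 and 4696 in APCs, and 7453, 7135, 7932 and 7448 in FIPs. The genes of these pairs were listed with earlier results of the data known, and their joint levels are descriptions.

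For Gpr-numbered receptors 6 ligand genes passed the filter. Ch25h, whose product is a precursor of the ligand of Gpr183, was highest in MLCs. Ch25h read 121, 112, 131 and 96.8 normalized counts in MLCs, 14.7, 19.2, 29.9 and 28.6 in SMCs, 11.8, 13.1, 20.02 and 19.02 in APCs, and 4.95, 4.62, 7.64 and 3.63 in FIPs. It was called higher in MLCs than in each other population, while Gpr183 itself did not pass. Psap, the prosaposin gene, read 18081 to 34794 in all libraries and was called in no pair.

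Downstream of the receptors, 27 G protein subunit genes passed, of which MLCs against APCs called 5 higher and 7 lower (17.7% and 11.8% of all genes), MLCs against FIPs 3 and 5 (18.6% and 12.5%), and MLCs against SMCs 2 and 7 (14.4% and 13.5%). SMCs against APCs called 5 and 0 (13.5% and 3.79% of all genes), SMCs against FIPs 6 and 2 (13.3% and 4.6%), and APCs against FIPs 3 and 3 (5.22% and 5.2%). Gnao1, the alpha subunit Go, was highest in SMCs. Gnao1 read 178, 169, 179 and 185 normalized counts in MLCs, 1158, 1096, 991 and 1159 in SMCs, 600.1, 607, 598 and 565 in APCs, and 272, 296, 306 and 294 in FIPs. Gng7, a gamma subunit, was lowest in MLCs, at 41.4 to 50.3, against 263 to 332 in SMCs, 402 to 433 in APCs and 382 to 435 in FIPs.

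Of 25 genes of cAMP synthesis and breakdown, MLCs against APCs called 7 higher and 5 lower (17.7% and 11.8% of all genes), MLCs against FIPs 6 and 4 (18.6% and 12.5%), and MLCs against SMCs 4 and 4 (14.4% and 13.5%). SMCs against APCs called 6 and 1 (13.5% and 3.79% of all genes), SMCs against FIPs 5 and 1 (13.3% and 4.6%), and APCs against FIPs 2 and 2 (5.22% and 5.2%). Adcy7, an adenylyl cyclase, was highest in SMCs. Adcy7 read 424, 311, 382 and 335 normalized counts in MLCs, 2994, 3733, 2701 and 3237 in SMCs, 910.3, 711, 731 and 603 in APCs, and 1679, 1536, 1636 and 1592 in FIPs. Of 21 genes for RGS proteins, which speed the shut-off of G proteins, and for receptor kinases and arrestins, MLCs against APCs called 4 higher and 5 lower, MLCs against FIPs 7 and 7, and MLCs against SMCs 3 and 8. SMCs against APCs called 5 and 3, SMCs against FIPs 7 and 4, and APCs against FIPs 4 and 2, and the shares of all genes are those just given for the same pairs. Rgs6 was highest in FIPs. Rgs6 read 20.9, 34.7, 28.03 and 19.4 normalized counts in MLCs, 148, 131, 177 and 132 in SMCs, 22.8, 11.1, 25.7 and 17.3 in APCs, and 369, 304, 408 and 405 in FIPs. Arrb1, an arrestin gene, was lowest in MLCs, at 374 to 398, against 1787 to 2157 in SMCs, 1485 to 1715 in APCs and 1119 to 1276 in FIPs.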

How the data were processed

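RNA-seq values of 16 libraries were analysed. The authors deposited normalized counts, a signal in which each library's reads per gene were divided by a single size factor. The values show this, since 100% of those above 0 are whole multiples of 1 step per library, within 0.01. Builds GRCm38 and mm10 and, without roles, the tools DESeq2 1.6.3, featureCounts 1.4.6, HISAT2 2.0.1 and Trim Galore 0.4.1 are listed in the submitters' processing notes. Not given in the sources used here are the strand setting, the annotation and the handling of multi-mapping reads, so overlapping genes and near copies are uncertain. Columns headed SMLCs were read as SMCs, because no other column was left for these titles.

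All 15024 genes that passed the filter (10 or more in 4 libraries) were fitted in 1 limma 3.58.1 model (R 4.3.3) of log2(value + 1) by population, with an intensity trend, two-sided tests and Benjamini-Hochberg adjustment over all of them in each pair of populations. Fold changes refer to log2(value + 1), which understates changes of low genes. Library values are given for genes with a mean of at least 100 in 1 population and a called change of at least 4-fold, and for the 5 highest by overall mean; other genes are given by mean or highest value. Library values of Gpr165, Gpr176, Adgrb1, Adgrl4 and, in SMCs and FIPs, Gpr17 were added after they were seen. So were the means of Lypd1, which overlaps Gpr39, of Pdzk1 and Gja5, which overlap Gpr89, and of the markers Mbp, Tek and Csf1r. Up to 4 genes of a ligand or signalling list, with the smallest adjusted p, and the first 3 of a marker list may be named. Single values of 3 genes that passed the filter are not reported here; all 3 are in the counts. The symbol rule, the ligand, signalling and marker lists, and the motifs were chosen with earlier results of these data known.

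Alternatives were other pseudocounts, filters, scalings and fits, each library left out, and edgeR 4.0.16 and DESeq2 1.42.0 on reads recovered from 14 libraries; FIPs replicate 1 and APCs replicate 2 were left out of those count tests because their steps lie near 1. Lengths are union exon lengths from GENCODE, and spans and promoter windows are RefSeq's. The code was tested on simulated data.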

Additional observations from a re-analysis of the deposited data

Results flagged for a closer look

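In 11 cases 1 library lay far from the other 3 of its population, by Dixon's criterion for 4 values. By chance about 1 in 20 groups of libraries meets it, and 57 genes in 4 populations were examined. That rate gives about as many cases as were found, so their number is not a result. Gpr176 read 44.96 in APCs replicate 4, against 0.715 to 5.07 in the other APC libraries, and Gpr50 read 3.698 in FIPs replicate 2, against 0 in the others. Gpr179 read 11.24 in SMCs replicate 4, against 34.2 to 36.3, and Adgrl4 read 9.302 in MLCs replicate 2, against 28.03 to 31.0. Adgrb2 read 179.4 in FIPs replicate 2, against 122 to 129.8, and Gpr161 read 445.9 in FIPs replicate 3, against 378 to 387. Gpr3 read 44.22 in SMCs replicate 1, against 29.9 to 32.02, and Gpr75 read 25.62 in SMCs replicate 3, the shallowest library, against 9.61 to 12.3. The remaining cases were small: Adgra3 read 1221 in SMCs replicate 2, against 1123 to 1138; Gpr108 read 1085 in FIPs replicate 3, against 944 to 968; and Gpr137b-ps read 171.8 in SMCs replicate 2, against 203 to 207.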

How the results depend on the processing

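Of the 143 called differences of single genes, 94 had a value under every alternative and were past both thresholds in each, 14 were lost under no alternative that tested them but were untested under at least 1, none was reversed, and 35 were lost under at least 1; the filter of 50 in 4 libraries left 32 of the 143 untested; in 11 of the 143 the libraries of the pair overlapped. The number of genes called in SMCs against APCs, 20, was 13 with a pseudocount of 8 and 12 with a filter of 50 in 4 libraries, which tests fewer genes. The 4 genes higher in SMCs than in all 3 other populations became 1 with that filter, which removed the other 3 (Gpr20, Gpr35 and Gpr176) before testing. The 1 gene of FIPs became 3 after quantile normalization; the cause was not tested. With each library left out in turn, the number called was 11 to 15 for APCs against FIPs, 25 to 27 for MLCs against APCs, 30 to 34 for MLCs against FIPs, 16 to 21 for SMCs against APCs, 20 to 23 for SMCs against FIPs and 26 to 29 for MLCs against SMCs. Genes higher in 1 population than in all others then numbered 13 to 14 for MLCs, 2 to 4 for SMCs, 0 for APCs and 1 for FIPs. The median log2 fold change over all genes lay between -0.01 and 0.35 with libraries scaled to equal totals, and between -0.11 and 0.01 after quantile normalization; MLCs against FIPs then gave 23 higher and 8 lower (23.7% and 9.47% of all genes), and 17 higher and 18 lower (15.9% and 15.5%), in place of 19 and 13. On the reads recovered from 14 libraries edgeR called 816 genes higher and 683 lower of 15024 for APCs against FIPs, with 4 and 8 among the receptors, and 2511 and 1885 for MLCs against APCs, with 16 and 10. Deviations of same-numbered libraries correlated weakly (r from -0.034 to 0.171, over 0.1 in 6 of 24 pairs). Differently numbered libraries were not compared, so these values cannot decide whether the numbers pair libraries. With the replicate number as a block, 15 receptor genes were called for APCs against FIPs in place of 14. For SMCs against APCs 19 were called in place of 20, and the other 4 counts were unchanged. Values under about 10 rest on few reads, and differences there are limited by depth.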
